A study of Mus musculus with 18 samples.

Results

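Transcripts of 10 genes of semaphorin signaling were followed in sorted cells of mouse liver and of liver metastases: the ligands *Sema4a*, *Sema4b*, *Sema4d*, *Sema6d* and *Sema7a*, the plexin receptors *Plxna1*, *Plxnb2* and *Plxnd1*, and the coreceptors *Nrp1* and *Nrp2*. The list was chosen by name with the levels and differences measured in these same libraries in view, so the values and counts of calls that follow describe these genes and are no independent evidence that they stand out. They are 10 of the 31 genes of the family in the mouse annotation (20 semaphorins, 9 plexins and 2 neuropilins), and all 10 are present among the 54309 genes of the lymphocyte table and the 13759 genes of the macrophage table. All 10 also passed the filter on low counts in both tables. In the lymphocytes, several passed through isolated libraries, as described for each gene.

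Semaphorins are secreted or membrane-bound proteins first known for steering growing axons, and many are also made by immune cells. They bind plexins, large receptors whose intracellular part acts on small GTPases of the Rap and Ras family and on the cytoskeleton. Neuropilins bind secreted semaphorins together with plexins, and they also bind VEGF family proteins. Sema4A and Sema4D are known from T cell activation and from contacts of lymphocytes with myeloid cells, and Sema7A, which is anchored in the membrane by a lipid, acts on monocytes through integrin β1.

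The lymphocytes were sorted from female C57BL/6J mice, 8 to 10 weeks old at intrasplenic injection of MC38 colon adenocarcinoma cells, and each library came from a pool of 6 to 8 samples taken on day 20, with 3 separate sortings in the study. Among NKp46+ cells without lineage markers, NK cells were CD49a- CD49b+ and ILC1 were CD49a+ CD49b-, both from metastasis-free liver (MFL), and liver metastases (LM) gave CD49a- NK cells and CD49a+ NK cells, the latter positive for both integrins. The metastasis-associated macrophages (MAMs) came from MC38 metastases and were CD11b+ cells with high (F4/80hi) or lower (F4/80int, called low in the sample labels) F4/80. Every group had 3 libraries. All mice carried MC38 metastases, so MFL is liver of a tumor-bearing mouse, and MFL tissue was smashed and filtered while LM was digested with enzymes, so site and dissociation cannot be told apart.

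Lymphocyte libraries held 8795721 to 14386834 counts and MAM libraries 21278959 to 32267015. The spread between libraries, as a coefficient of variation over genes, was 0.517 in MFL NK cells and 0.657 in ILC1, but 1.09 in LM CD49a+ and 1.25 in LM CD49a- NK cells, against 0.164 and 0.160 in the MAMs. Among the LM CD49a- libraries, replicate 2 alone had counts of *Plxna1* and was highest for *Nrp1* and *Sema4d*. Replicate 3, the deepest lymphocyte library, alone had counts of *Sema6d*, *Plxnd1* and *Nrp2*. Differences that change sign without replicate 2 are given with and without it. The sorted populations carried the markers of their labels: a list of 6 NK cell genes summed to 2565 to 3326 counts per 1000000 counts (CPM) in MFL NK and LM CD49a- NK cells, 1065 to 1653 CPM in LM CD49a+ NK cells and 94.0 to 164 CPM in ILC1, and a list of 6 ILC1 genes summed to 1523 to 1575 CPM in ILC1 against 25.9 to 280.4 CPM in the other lymphocytes. The NK cell list includes the gene of CD49b and the ILC1 list the gene of CD49a, both used in the sort. Part of each sum was thus set by the gate. With 3 libraries a group, an exact permutation test of 1 gene cannot go below p = 0.1 (two-sided), so tests were fits over all genes. Adjusted p-values are from edgeR's quasi-likelihood test over all genes of a table, and a gene is called at an adjusted p under 0.1.

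Per kilobase of exon, the lymphocytes carried mainly ligand transcripts. *Sema4a* and *Sema4d* were the top 2 of the 10 in each of the 4 lymphocyte populations, at 18.6 to 39.5 CPM per kb for *Sema4a* and 21.5 to 35.5 CPM per kb for *Sema4d*. ILC1 were the one population in which *Sema6d* came close to them, at 15.8 ± 1.66 CPM per kb (SD, n = 3). None of the 3 plexins and neither neuropilin among the 10 reached a mean of 1 CPM per kb in lymphocytes except *Nrp1* in LM CD49a+ NK cells, at 1.11 ± 0.753 CPM per kb. The MAMs instead carried *Plxnb2* as the most abundant of the 10, at 105 ± 16.7 CPM per kb in F4/80hi and 71.5 ± 5.06 CPM per kb in F4/80int cells. Lymphocytes and MAMs were prepared with different kits and tabulated separately, so no level was tested between them.

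**Figure D1:**
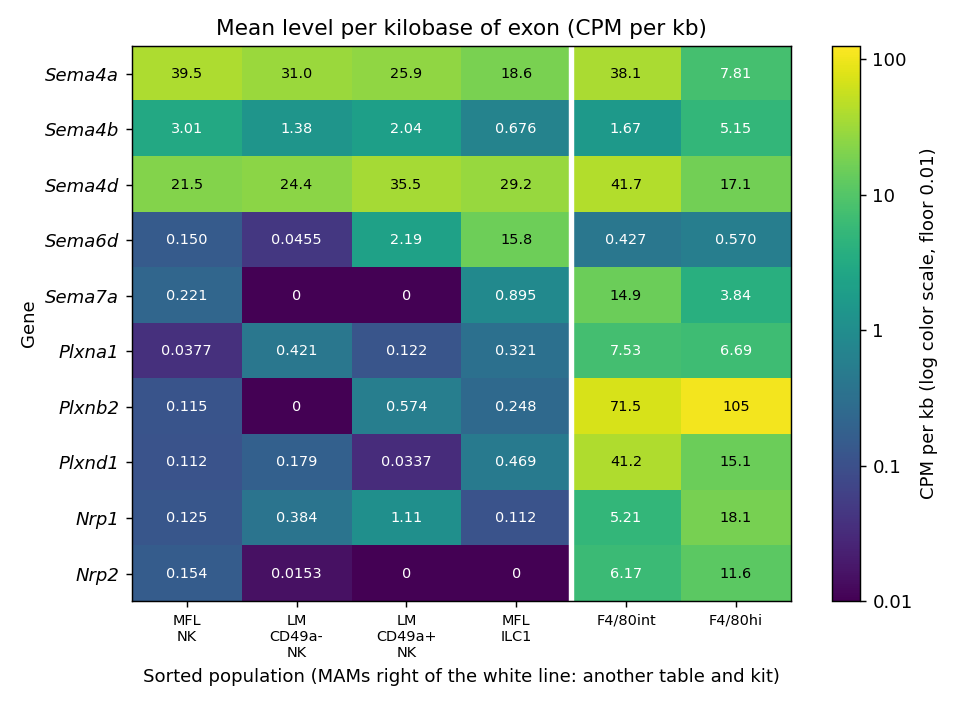
Mean level of each of the 10 genes (rows) in each sorted population (columns), in CPM per kilobase of exon, as numbers and on a log color scale. *Sema4a* and *Sema4d* lead in the 4 lymphocyte populations, and *Plxnb2* leads in both MAM subsets.

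*Sema6d* (ENSMUSG00000027200, GRCm39 chromosome 2, 123931715 to 124509928, plus strand) encodes a transmembrane semaphorin that binds class A plexins. MFL ILC1 had 204, 168 and 176 CPM in replicates 1 to 3. LM CD49a+ NK cells had 42.9, 10.95 and 21.9 CPM, the NK cells of MFL had 4.16, 0.958 and 0.0734 CPM, the last from 1 count, and LM CD49a- NK cells had 0, 0 and 1.58 CPM, where a count of 0 allows up to 0.334 CPM. The populations without CD49a thus held the lowest libraries and overlapped each other, LM CD49a+ NK cells lay above all of these, and ILC1 lay above all others. Between ILC1 and MFL NK cells, *Sema6d* was higher by 6.73 ± 1.11 on the log2 scale (standard error), with an edgeR adjusted p of 0.00156. Within LM, the CD49a+ population exceeded the CD49a- population by 5.41 ± 1.101 (edgeR adjusted p = 0.0933). LM CD49a+ NK cells differed from MFL NK cells by 3.87 ± 0.99 (edgeR adjusted p = 0.128) and from ILC1 by -2.86 ± 0.92 (edgeR adjusted p = 0.144), neither of them called although the libraries did not overlap. A list of 6 tumor epithelium genes moved with *Sema6d*: it summed to 59.3 to 95.2 CPM in ILC1, 23.8 to 51.5 CPM in LM CD49a+ NK cells and at most 4.41 CPM in the other libraries. The keratins *Krt18*, *Krt19* and *Krt20* were at 0 counts in ILC1, and these and *Krt8* were at 0 in LM CD49a+ NK cells. Of the 6 genes, 4 had a mean under 1 CPM in each of these populations, so the sums rest on few genes. The part of tumor epithelium in the *Sema6d* values was not tested. The size rested on few counts, since the within-LM log2 difference ran from 4.76 to 11.18 when 1 library was left out, the highest without LM CD49a- replicate 3, the one library of that group with counts. The ILC1 difference from MFL NK cells was 8.44 without MFL NK replicate 1. The within-LM call was lost without any 1 of 6 libraries, and the adjusted p was then 0.236 without LM CD49a- replicate 1, 0.105 without LM CD49a- replicate 2, 0.243 without LM CD49a+ replicate 1, and 0.211, 0.134 and 0.140 without ILC1 replicates 1, 2 and 3, which are not in the contrast but share its estimate of spread. Against MFL NK cells, *Sema6d* was called without MFL NK replicate 1 (0.0896), LM CD49a- replicates 1, 2 or 3 (0.0744, 0.0506 and 0.0593) or LM CD49a+ replicate 2 (0.0773), and against ILC1 it was called without MFL NK replicates 1 or 3 (0.0914 and 0.0714) or LM CD49a- replicates 1, 2 or 3 (0.0804, 0.0665 and 0.0720).

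*Sema4a* (ENSMUSG00000028064, chromosome 3, 88343262 to 88372558, minus strand) was ordered the other way. MFL NK cells had 357, 377 and 347 CPM, LM CD49a- NK cells 286, 325 and 239 CPM, LM CD49a+ NK cells 218, 255 and 238 CPM, and ILC1 197, 173 and 141 CPM. MFL NK cells were above every other library and ILC1 below every other library, and the LM populations lay between them and overlapped. *Sema4a* was lower in ILC1 than in MFL NK cells by -1.08 ± 0.21 on the log2 scale (edgeR adjusted p = 0.00564). It differed by -0.61 ± 0.21 between LM CD49a+ and MFL NK cells (edgeR adjusted p = 0.356) and by 0.48 ± 0.21 between LM CD49a+ NK cells and ILC1 (edgeR adjusted p = 0.304), and neither was called.

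*Sema4d* (ENSMUSG00000021451, chromosome 13, 51836318 to 51947922, minus strand) encodes the ligand of class B plexins. MFL NK cells had 258, 306 and 263 CPM, ILC1 320, 438 and 369 CPM, LM CD49a+ NK cells 534, 394 and 440 CPM, and LM CD49a- NK cells 198, 477 and 267 CPM. LM CD49a+ NK cells and ILC1 were above all MFL NK libraries, while LM CD49a- NK cells overlapped with each of the other populations. No contrast was called by edgeR, and the one with the smallest edgeR adjusted p was LM CD49a+ against MFL NK cells (0.73 ± 0.27, adjusted p = 0.401). The log2 difference of 0.45 ± 0.27 between ILC1 and MFL NK cells was called by limma-voom with sample quality weights (adjusted p = 0.0057) and not by edgeR (adjusted p = 0.943) or DESeq2. Between LM CD49a- and MFL NK cells the log2 difference of 0.19 ± 0.27 became -0.25 without LM CD49a- replicate 2. *Sema4d* overlaps *Secisbp2* on the opposite strand, and whether the counting used strand is not given in the sources used here.

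*Sema4b* (ENSMUSG00000030539, chromosome 7) was a minor ligand, with 14.1 to 23.1 CPM in MFL NK cells, 5.68 to 14.5 CPM in LM CD49a- NK cells, 9.68 to 15.7 CPM in LM CD49a+ NK cells and 2.63 to 7.47 CPM in ILC1. Its ILC1 libraries lay below all MFL NK libraries, but the log2 difference of -2.15 ± 0.90 was not called by edgeR (adjusted p = 0.438). DESeq2 (adjusted p = 0.0564) and limma-voom with sample quality weights (adjusted p = 0.00197) called it. *Sema7a* (ENSMUSG00000038264, chromosome 9) was at 0 counts in all 6 LM libraries, at 0, 1.11 and 1.101 CPM in the NK cells of MFL and at 0, 2.85 and 6.06 CPM in ILC1, so it passed the low-count filter through 4 of 12 libraries.

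The receptors were near their floor in most lymphocyte libraries. *Nrp1* (ENSMUSG00000025810, chromosome 8, 129085085 to 129231082, plus strand) had 27.7, 18.4 and 4.88 CPM in LM CD49a+ NK cells. MFL NK cells had 2.69, 1.62 and 1.39 CPM, ILC1 2.55, 1.17 and 1.42 CPM, and LM CD49a- NK cells 0, 16.1 and 1.497 CPM. All LM CD49a+ libraries lay above both MFL populations and overlapped with LM CD49a- NK cells through replicate 2 of the latter. The log2 differences of 3.15 ± 1.63 from MFL NK cells (edgeR adjusted p = 0.581) and 3.30 ± 1.65 from ILC1 (edgeR adjusted p = 0.390) were not called by edgeR or DESeq2 and were called by limma-voom with sample quality weights (adjusted p = 0.0387 and 0.0218). In LM CD49a- against MFL NK cells the log2 difference was 1.61 ± 1.55 with LM CD49a- replicate 2 and -1.32 without it. Endothelial cells, dendritic cells and macrophages also express *Nrp1*. Of 10 endothelial markers, 9 were at 0 counts in all 6 LM libraries, *Cdh5* and *Kdr* among them. The remaining one, *Pecam1*, which lymphocytes also express, alone set the list's sum there, 220 to 281 CPM in LM CD49a+ and 79.2 to 259 CPM in LM CD49a- NK cells, beside list sums of 86.5 to 146 CPM in MFL NK cells and 131 to 154 CPM in ILC1. The 5 Kupffer cell markers were at 0 there too, and of 10 macrophage markers, which summed to 0 to 44.3 CPM in LM CD49a+ and 0 to 25.7 CPM in LM CD49a- NK cells, *Adgre1* was at 0 in all 6. A list of 8 dendritic cell genes summed to 26.99 to 71.5 CPM in LM CD49a+ NK cells, 14.6 to 76.2 CPM in LM CD49a- NK cells and 2.89 to 15.2 CPM in the MFL populations. Of the 8, 6 had a mean under 1 CPM in each population, so these sums rest on few genes. In LM CD49a- NK cells 6 were at 0 counts and in LM CD49a+ NK cells 4, with *Clec9a* and *Xcr1* at 0 in both. The part of endothelial cells, macrophages and dendritic cells in the *Nrp1* values was not tested.

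*Nrp2* (ENSMUSG00000025969, chromosome 1) had 2.53, 0.811 and 2.20 CPM in MFL NK cells, was at 0 counts in all libraries of ILC1 and LM CD49a+ NK cells, and had 7 counts in 1 LM CD49a- library. Against the 3 counts per library that a 0 allows, *Nrp2* was at least 7.31-fold lower in ILC1 and at least 6.73-fold lower in LM CD49a+ NK cells, each relative to MFL NK cells, with edgeR adjusted p-values of 0.354 and 0.434. Limma-voom with sample quality weights called the first (adjusted p = 0.000592). *Nrp2* passed the low-count filter through the MFL NK libraries alone, the population where it was highest. These differences thus describe its counts and are no separate evidence. *Plxna1* (ENSMUSG00000030084, chromosome 6), a receptor for class 6 semaphorins and, with neuropilins, for class 3, was seen in 1 LM library of each population, at 19.7 CPM in replicate 2 of the CD49a- and at 5.71 CPM in replicate 2 of the CD49a+ NK cells, with 0 counts in the other 4. ILC1 had 1.36, 5.34 and 8.34 CPM, above 0, 0.884 and 0.881 CPM in MFL NK cells, and that difference was called by limma-voom with sample quality weights and not by edgeR (adjusted p = 1) or DESeq2. Without LM CD49a- replicate 2, the log2 difference of *Plxna1* within LM went from -1.78 to 7.505 and that of LM CD49a- against MFL NK cells from 3.45 to -5.83. *Plxnb2* (ENSMUSG00000036606, chromosome 15) was at 0 in every LM CD49a- library and at 0, 7.20 and 6.88 CPM in LM CD49a+ NK cells. It had 0, 6.07 and 0 CPM in ILC1. *Plxnd1* (ENSMUSG00000030123, chromosome 6), the receptor of Sema3E and also of Sema4A, had at most 5.69 CPM in any lymphocyte library. It had 5.69, 5.49 and 0 CPM in ILC1 and 0, 0 and 4.25 CPM in LM CD49a- NK cells.

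**Figure D2:**
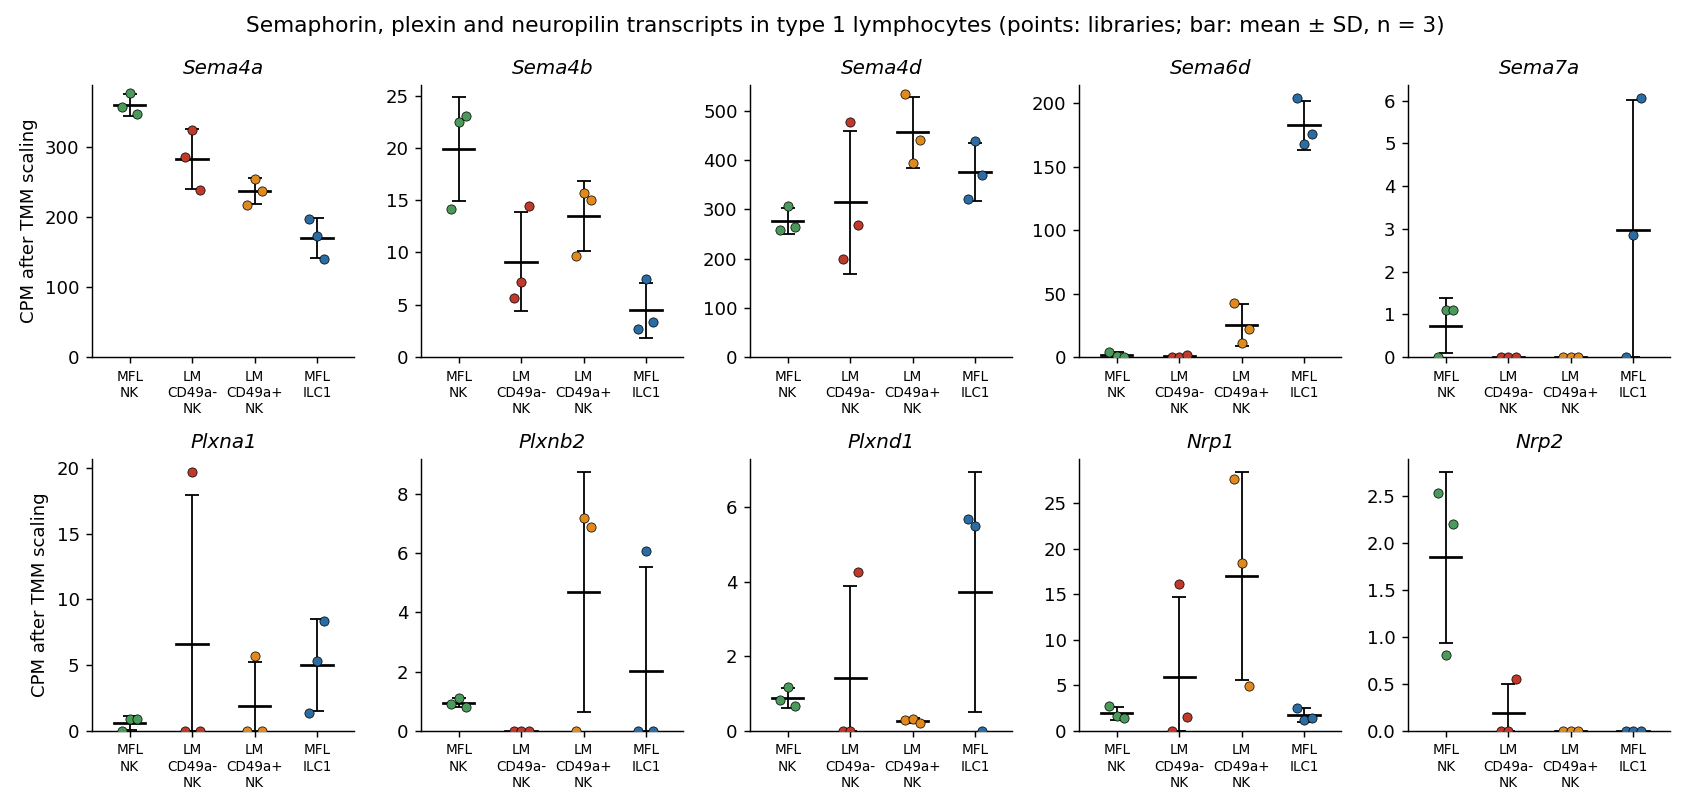
CPM after TMM scaling of the 10 genes in type 1 lymphocytes, with 1 point per library and the mean ± SD of 3 libraries per population (lower bars end at 0). *Sema6d* is highest in ILC1, at 168 to 204 CPM, and *Plxna1* and *Nrp1* in LM CD49a- NK cells rest on 1 high library.

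Over the 10 genes, edgeR called 1 within LM, where 0.140% of all tested genes were called, and 2 between ILC1 and MFL NK cells, where 3.06% were called. In the latter contrast DESeq2 called 3 of the 10 (4.91% of all genes) and limma-voom with sample quality weights 6 (19.5% of all genes). EdgeR called 0 in LM CD49a+ against MFL NK cells (0.647% of all genes called), with 4 of the 10 at an unadjusted p under 0.05. In LM CD49a+ NK cells against ILC1 edgeR also called 0 (3.58% of all genes called), with 3 of the 10 at an unadjusted p under 0.05. In both, DESeq2 called 0 of the 10 (2.69% and 7.43% of all genes) and limma-voom with sample quality weights called 2, *Nrp1* and *Sema6d* (2.26% and 6.88% of all genes). In LM CD49a- against MFL NK cells (0.0736% of all genes called) edgeR, DESeq2 (1.18% of all genes) and limma-voom (0.765% of all genes) each called 0, and 0 of the 10 had an unadjusted p under 0.05. Whether the difference between CD49a+ and CD49a- cells depended on site was tested as an interaction. Its CD49a+ cells were CD49b- ILC1 in MFL and CD49b+ NK cells in LM, so site cannot be told apart from cell type. The test called 0 of the 10 by each of these tools (1.03% of all genes by edgeR, 2.57% by DESeq2 and 1.32% by limma-voom), with 2 of the 10 at an unadjusted p under 0.05 by edgeR. These were *Sema4a* (0.82 ± 0.29, edgeR adjusted p = 0.401) and *Sema4b* (2.71 ± 1.24, edgeR adjusted p = 0.557). The libraries of the groups did not overlap for 1 of the 10 genes within LM (9.82% of all tested genes), 6 in ILC1 against MFL NK cells (25.3%), 6 in LM CD49a+ against MFL NK cells (20.1%), 4 in LM CD49a+ NK cells against ILC1 (23.2%) and 3 in LM CD49a- against MFL NK cells (16.2%). Some of these separations lay near the floor. *Plxnd1* had 3, 4 and 2 counts in LM CD49a+ against 10, 16 and 9 in MFL NK cells. *Plxnb2* was at 0 in LM CD49a- against 11, 15 and 11 counts in MFL NK cells. *Nrp2* had at most 7 counts outside MFL NK cells. These contrasts share libraries, so their values are set side by side and were not compared. In bulk libraries, fewer cells of a type and less RNA per cell cannot be told apart. The ILC1 libraries also held more T cell transcripts, with a list of 6 T cell genes at 247 to 681 CPM against 4.98 to 35.7 CPM in the other lymphocytes and none of the 6 at 0 counts in ILC1, and the part of these transcripts in the ILC1 differences was not tested.

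The gene whose log2 CPM followed *Sema6d* most closely over the 12 lymphocyte libraries was *Tnfsf8*, the ligand CD30L, with Pearson's r = 0.963, followed by *Serpina3g* with r = 0.958, among 9774 genes with a mean of at least 5 CPM. *Tnfsf8* had 69.6 ± 16.3 CPM in ILC1, 12.1 ± 3.00 CPM in the CD49a+ NK cells of LM, 3.23 ± 1.83 CPM in NK cells of MFL and 1.40 ± 1.32 CPM in LM CD49a- NK cells. For *Sema4a* they were *Plec*, encoding the cytoskeletal linker plectin (r = 0.962), and *Ripor2* (r = 0.951). In ILC1 *Ripor2* averaged 190 ± 36.8 CPM, below its 519 ± 21.5 CPM in the NK cells of MFL. These correlations describe 12 libraries in 4 populations, which share the sorting and the scaling.

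Of the other 21 family genes, 9 passed the filter in lymphocytes and 2 were called in some contrast. EdgeR called 0.0736% to 3.58% of all tested genes, depending on the contrast. *Sema6a*, like *Sema6d* a transmembrane class 6 semaphorin, was near 0 where *Sema6d* was highest. It had 26.7, 8.03 and 12.2 CPM in NK cells of MFL, 26.4, 12.2 and 24.0 CPM in LM CD49a- NK cells and 4.45, 13.7 and 57.0 CPM in LM CD49a+ NK cells. In ILC1 it had 0, 2 and 0 counts. Against the floor of 3 counts per library it was at least 61.9-fold lower in ILC1 than in MFL NK cells (edgeR adjusted p = 0.00254) and at least 99.1-fold higher in LM CD49a+ NK cells than in ILC1 (edgeR adjusted p = 0.00206). The first bound was 39.99-fold without MFL NK replicate 1 and the second 35.9-fold without LM CD49a+ replicate 3, which held most of the *Sema6a* counts of its group. *Plxnc1*, the plexin that binds Sema7A, had 8.32, 4.39 and 1.61 CPM in ILC1, below 38.1, 27.05 and 22.8 CPM in MFL NK cells (-2.61 ± 0.64, edgeR adjusted p = 0.0362) and below 53.6, 27.5 and 61.9 CPM in LM CD49a+ NK cells (3.32 ± 0.66 for LM CD49a+ NK cells against ILC1, edgeR adjusted p = 0.00939). LM CD49a- NK cells had 74.0, 20.5 and 47.6 CPM. The *Plxnc1* call between ILC1 and MFL NK cells was lost without MFL NK replicate 1 (adjusted p = 0.162), ILC1 replicate 2 (0.151) or ILC1 replicate 3 (0.179), and the log2 differences were -3.28 from MFL NK cells and 3.97 for LM CD49a+ NK cells against ILC1 without ILC1 replicate 1.

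Partners of the pathway were also tested in the lymphocytes, where edgeR called 0.0736% to 3.58% of all tested genes per contrast. Of 5 other neuropilin ligands, 4 were tested, and edgeR called 1 in each NK contrast with MFL NK cells, 1 in ILC1 against MFL NK cells, 2 in LM CD49a+ NK cells against ILC1 and 1 in the interaction. *Vegfa*, a ligand of Nrp1, averaged 81.1 ± 24.8 CPM in MFL NK cells, 3.12 ± 1.72 CPM in ILC1, 504 ± 439.8 CPM in LM CD49a+ NK cells and 610.5 ± 565 CPM in LM CD49a- NK cells. It fell in ILC1 against MFL NK cells (-4.70 ± 0.87, edgeR adjusted p = 0.00417) and was higher in LM CD49a+ NK cells than in ILC1 (7.33 ± 0.97, edgeR adjusted p = 0.000268). Between LM CD49a+ and MFL NK cells the libraries overlapped, and the *Vegfa* difference was not called (2.64 ± 0.77, edgeR adjusted p = 0.237). *Tgfb1* averaged 513 ± 229 CPM in LM CD49a- and 493 ± 170 CPM in LM CD49a+ NK cells against 168 ± 16.5 CPM in MFL NK cells, with log2 differences of 1.61 ± 0.30 (edgeR adjusted p = 0.0711) and 1.56 ± 0.30 (edgeR adjusted p = 0.0262). Of 33 signaling genes, 27 were tested and 2 were called, both lower in ILC1 than in MFL NK cells: the kinase *Fyn* (-1.31 ± 0.21, edgeR adjusted p = 0.000969) and the small GTPase *Rap1b*. Of 14 other receptors, 6 were tested, and *Itgb1*, the integrin β1 that Sema7A binds, was lower in ILC1 than in MFL NK cells (-1.12 ± 0.23, edgeR adjusted p = 0.0091) and higher in LM CD49a+ NK cells than in ILC1 (1.79 ± 0.23, edgeR adjusted p = 0.000237). The other called receptor, *Itga1*, encodes the CD49a of the sort gate and is no finding. None of the 3 sheddases tested was called by edgeR in any contrast, with 1 of 3 at an unadjusted p under 0.05 within LM, in both LM contrasts with MFL NK cells, in ILC1 against MFL NK cells and in the interaction.

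In the MAMs all 10 genes had counts in every library. Of the 10 genes, 8 were called, 4 higher and 4 lower in F4/80hi than in F4/80int MAMs, where 54.9% of all tested genes were called (27.8% higher and 27.1% lower), so a call is common in this table. The same 8 genes were called by DESeq2 (52.3% of all genes) and by limma-voom with sample quality weights (58.0% of all genes), and 8 were called without any 1 library. The libraries of the subsets did not overlap for these 8, which held for 58.4% of all tested genes. Both neuropilins, *Plxnb2* and *Sema4b* were higher in F4/80hi MAMs, and *Sema4a*, *Sema4d*, *Sema7a* and *Plxnd1* were lower.

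Both coreceptors were among the genes higher in F4/80hi MAMs. *Nrp1* had 255, 232 and 340.2 CPM in F4/80hi and 83.6, 80.2 and 74.4 CPM in F4/80int MAMs. The subsets lay far apart relative to their spread, with a log2 difference of 1.80 ± 0.15 (edgeR adjusted p = 3.64e-05). *Nrp2* had 144, 135 and 138 CPM in F4/80hi and 83.8, 63.7 and 75.2 CPM in F4/80int MAMs, a log2 difference of 0.90 ± 0.11 (edgeR adjusted p = 0.000259). *Nrp1* was thus more abundant than *Nrp2* per kb in F4/80hi MAMs (18.1 ± 3.74 against 11.6 ± 0.389 CPM per kb), whereas in F4/80int MAMs their levels were 5.21 ± 0.307 and 6.17 ± 0.837 CPM per kb.

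The plexins did not move together. *Plxnb2*, the receptor of Sema4 ligands, had 786, 769 and 1013 CPM in F4/80hi and 538, 616 and 600 CPM in F4/80int MAMs, a log2 difference of 0.55 ± 0.13 (edgeR adjusted p = 0.00745). *Plxnd1* had 116, 113 and 131 CPM in F4/80hi and 353, 351 and 279 CPM in F4/80int MAMs, which fell by 1.45 on the log2 scale (standard error 0.12, edgeR adjusted p = 3.57e-05). *Plxna1* had 84.9, 109 and 119 CPM in F4/80hi and 102, 137 and 113 CPM in F4/80int MAMs. Its subsets overlapped, and the log2 difference of -0.17 ± 0.15 was not called (edgeR adjusted p = 0.383).

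Among the 5 ligands, *Sema4a* differed most. It had 87.7, 62.0 and 64.5 CPM in F4/80hi and 395, 324 and 325 CPM in F4/80int MAMs, so it was lower in F4/80hi MAMs by -2.29 ± 0.15 on the log2 scale (edgeR adjusted p = 1.39e-05). *Sema7a* had 9.01, 20.7 and 8.59 CPM in F4/80hi and 72.3, 42.1 and 33.8 CPM in F4/80int MAMs, with the largest standard error of the 4 called ligands among the 10 and a log2 difference of -1.95 ± 0.39 (edgeR adjusted p = 0.0038). *Sema4d* had 211, 203 and 244 CPM in F4/80hi and 491, 576 and 544 CPM in F4/80int MAMs (-1.29 ± 0.11, edgeR adjusted p = 3.94e-05). *Sema4b* went the other way within the same ligand class, with 30.3, 39.005 and 32.9 CPM in F4/80hi and 9.23, 15.4 and 8.52 CPM in F4/80int MAMs (1.62 ± 0.22, edgeR adjusted p = 0.000534). *Sema6d*, the ligand that marked ILC1 among the lymphocytes, had 4.71 to 9.40 CPM in F4/80hi and 3.81 to 6.50 CPM in F4/80int MAMs, and its log2 difference of 0.42 ± 0.30 was not called (edgeR adjusted p = 0.294).

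**Figure D3:**
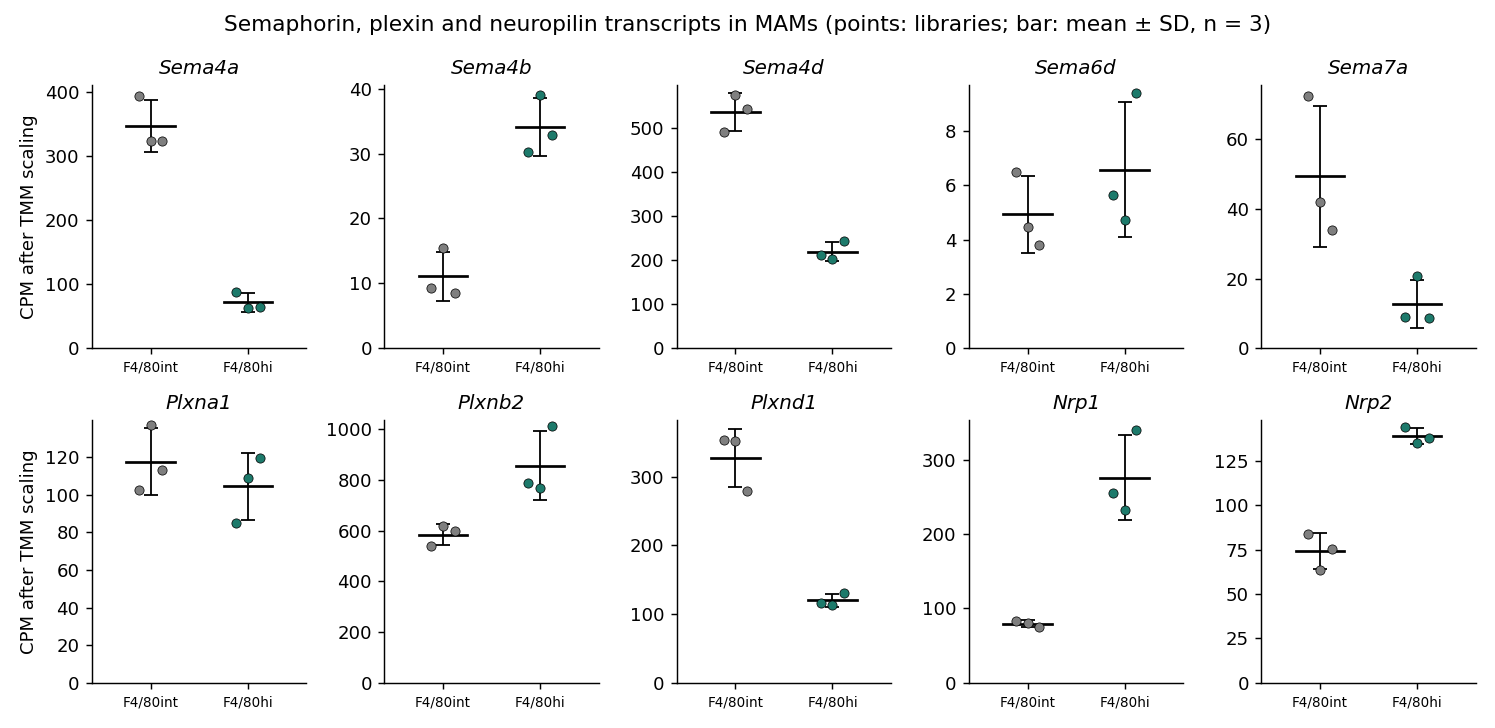
CPM after TMM scaling of the 10 genes in F4/80int and F4/80hi MAMs, with 1 point per library and the mean ± SD of 3 libraries per subset. *Sema6d* and *Plxna1* overlap between the subsets, and the other 8 genes do not.

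The 250 bases before the annotated start were read for the 10 genes from GRCm39, with starts from GENCODE vM39. Those of 6 genes lie in part or in whole within annotated exons, *Sema4a*, *Sema6d* and *Nrp1* among them. The windows of the other 4 hold no annotated exon, and 3 of these genes were called in the MAMs. They are printed here, with every CG dinucleotide in capitals, to show the start regions of a coreceptor higher in F4/80hi MAMs and of a receptor and a ligand lower in them. *Nrp2* is at chr1:62742194-62742443 on the plus strand, *Plxnd1* at chr6:115972287-115972536 on the minus strand and *Sema7a* at chr9:57847125-57847374 on the plus strand.
Nrp2: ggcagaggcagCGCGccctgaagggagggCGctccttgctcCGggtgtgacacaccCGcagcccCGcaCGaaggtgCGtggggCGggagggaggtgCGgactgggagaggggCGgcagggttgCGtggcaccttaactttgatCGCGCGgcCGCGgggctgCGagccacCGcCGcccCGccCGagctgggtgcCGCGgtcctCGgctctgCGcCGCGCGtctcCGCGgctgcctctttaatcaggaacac
Plxnd1: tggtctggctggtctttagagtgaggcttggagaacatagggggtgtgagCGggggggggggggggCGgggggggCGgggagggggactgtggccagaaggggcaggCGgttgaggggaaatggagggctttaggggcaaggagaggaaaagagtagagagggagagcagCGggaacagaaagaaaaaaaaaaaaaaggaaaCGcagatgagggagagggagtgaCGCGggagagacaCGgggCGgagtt
Sema7a: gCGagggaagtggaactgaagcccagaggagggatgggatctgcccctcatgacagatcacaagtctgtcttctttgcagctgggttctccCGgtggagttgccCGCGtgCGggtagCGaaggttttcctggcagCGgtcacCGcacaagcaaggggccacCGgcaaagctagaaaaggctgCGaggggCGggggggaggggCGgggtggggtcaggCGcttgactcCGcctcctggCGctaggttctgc
*Nrp2* has 31 CG dinucleotides in this window, *Plxnd1* 10 and *Sema7a* 15, against a median of 12 over the windows of 12921 tested genes, and 4.57%, 61.2% and 40.2% of these windows hold at least as many. Among the 10 genes, the number ran from 5 for *Sema4a* and 6 for *Sema4d* to 31 for *Nrp2* and 32 for *Sema6d*. Of 4 motifs searched on both strands, GAGGAAGT (a PU.1-type ETS site), TGANTCA (AP-1), AGGTGTGA (T-box) and TGTGGT (RUNX), none was found in the windows of the 10 genes, and they were found in 2.37%, 4.67%, 0.673% and 12.1% of all windows. Which start these cells use was not measured.

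Other family genes in the MAM table were mostly higher in F4/80hi MAMs. Of the 21, 12 were in the table, where 54.9% of all tested genes were called (27.8% higher and 27.1% lower). Of these 12, 10 were called, 9 higher and 1 lower. The largest differences were in *Sema3a*, a secreted ligand of Nrp1 and class A plexins, with 4.28, 15.3 and 4.64 CPM in F4/80hi and 1.38, 0.785 and 0.605 CPM in F4/80int MAMs (3.11 ± 0.57, edgeR adjusted p = 0.00255), and in *Sema5a* (2.29 ± 0.45, edgeR adjusted p = 0.00361). *Sema6c* (1.90), *Plxnb3* (1.70), *Plxna2* (1.16), *Plxna4* (0.91), *Sema4c* (0.74), *Plxna3* (0.43) and *Sema6b* (0.23) were also higher on the log2 scale. Of these, *Plxna2*, *Plxna3*, *Plxna4* and *Sema6b* lost the call without single libraries: *Plxna2* without F4/80hi replicate 2 or any F4/80int replicate, *Plxna4* without F4/80hi replicate 3 or any F4/80int replicate, *Plxna3* without F4/80hi replicate 2 or 3 or any F4/80int replicate, and *Sema6b* without F4/80hi replicate 3 or F4/80int replicate 1 or 2, with adjusted p-values from 0.101 to 0.23. *Sema3a* differed by 2.25, *Plxna2* by 0.50 and *Plxna4* by 0.31 without F4/80hi replicates 2, 2 and 3 in turn. *Plxnc1* was the one that was lower, with 50.0, 53.0 and 56.7 CPM in F4/80hi and 127, 126 and 92.1 CPM in F4/80int MAMs (-1.11). It thus moved in the direction of its ligand *Sema7a*. The median log2 difference was 0.82 over these 12 genes, 0.12 over the 10 and 0.01 over all tested genes.

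**Figure D4:**
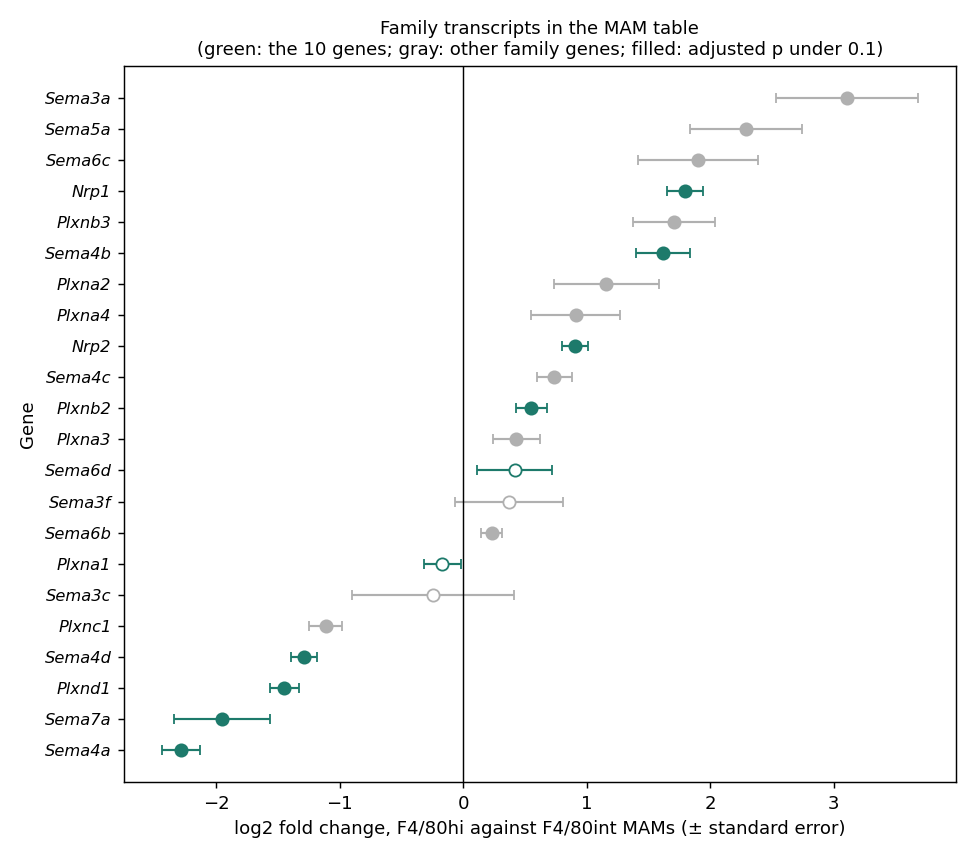
Log2 fold change of the 22 family genes in the MAM table, F4/80hi against F4/80int, with the standard error, the 10 genes in green and the other 12 in gray, filled where the adjusted p is under 0.1. *Nrp1* and *Nrp2* lie at 1.80 and 0.90, and *Sema4a* lies lowest at -2.29.

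The other receptors and the other neuropilin ligands of the pathway leaned the other way. For the counts that follow, 54.9% of all tested genes were called, 27.8% higher and 27.1% lower in F4/80hi MAMs. Of 12 other semaphorin receptors and coreceptors in the MAM table, 10 were called, 3 higher and 7 lower in F4/80hi MAMs, with a median log2 difference of -1.13. The lower ones included *Mst1r*, a receptor kinase that associates with class B plexins, which had 0, 0.283 and 0.0973 CPM in F4/80hi and 4.40, 3.89 and 5.32 CPM in F4/80int MAMs (-5.04 ± 0.60, edgeR adjusted p = 0.00025), and *L1cam*, the adhesion molecule that forms a Sema3A receptor with Nrp1, with 2.16, 2.41 and 1.85 CPM against 38.2, 45.1 and 33.1 CPM (-4.18 ± 0.16, edgeR adjusted p = 1.6e-06). *Itga1* was also lower (-3.55 ± 0.20, edgeR adjusted p = 5.48e-06). All 5 other neuropilin ligands were called, 1 higher and 4 lower, with *Pgf*, the placental growth factor, at 0.162 to 0.425 CPM in F4/80hi and 1.40 to 4.11 CPM in F4/80int MAMs (-3.31 ± 0.52, edgeR adjusted p = 0.00119). Thus *Nrp1* and *Nrp2* were higher in the subset in which 4 of 5 of these ligands were lower. All 4 sheddases were called, 3 higher and 1 lower. Of 32 signaling genes 20 were called, 9 higher and 11 lower, a share near that of all tested genes. The signaling gene with the largest difference was *Dpysl5*, a CRMP family gene, which had 0, 1 and 3 counts in F4/80hi MAMs and was at least 14.4-fold lower there against the floor of 3 counts per library (edgeR adjusted p = 0.00126).

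The subsets also differed in markers of several cell types. A list of 10 macrophage genes summed to 19678 to 25772 CPM in F4/80hi and 10066 to 12566 CPM in F4/80int MAMs, and 6 classical monocyte genes to 439 to 557 CPM and 1927 to 2039 CPM. Dendritic cell genes (8) summed to 285 to 328 CPM in F4/80hi and 433 to 530 CPM in F4/80int MAMs, and the 2 tumor epithelium genes in the table, of 6 listed, to 8.30 to 11.8 CPM and 197 to 281 CPM. The keratins of that list, *Krt8*, *Krt18*, *Krt19* and *Krt20*, are absent from the MAM table, so this sum holds no keratin. The 5 stellate cell and fibroblast genes in the table summed to 258 to 556 CPM in F4/80hi and 43.4 to 151 CPM in F4/80int MAMs. Fibroblasts express *Nrp1*, *Sema3a* and *Sema5a*, and tumor epithelium can express *Mst1r*, and the part of these cells in the differences was not tested. Endothelial markers, which would accompany *Nrp1*, *Plxnd1* and *Kdr* of vessels, summed to 90.8 to 119 CPM in F4/80hi and 99.8 to 126 CPM in F4/80int MAMs, with 6 of 10 in the table, and the 5 Kupffer cell genes summed to at most 15.8 CPM in any MAM library.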

How the data were processed

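Bulk RNA-seq of 12 lymphocyte and 6 MAM libraries was analyzed. Lymphocyte libraries were made with a stranded total RNA kit and MAM libraries with a directional poly(A) kit. The deposited values of both tables are estimated counts per gene, without normalization, in whole numbers. According to the methods and the submitters' processing notes, the authors used Trim Galore for trimming and Salmon for quantification (1.5.0 with GENCODE M27 and tximport 1.28.0 for lymphocytes, 1.10.0 for MAMs) on GRCm39. The annotation used for the MAMs is not given in the sources used here. The MAM table appears prefiltered, since it holds 13759 genes. No sample column was left unmapped (0 columns).

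Gene IDs were named from GENCODE vM39 (GRCm39), which also gave positions and exon lengths. Each table was fitted on its own in edgeR 4.0.16 (R 4.3.3) with TMM scaling, filterByExpr by group and the quasi-likelihood test, 12 lymphocyte libraries in 1 fit (13594 genes tested) and 6 MAM libraries in another (13759 genes tested), with Benjamini-Hochberg adjustment over all genes and calls at an adjusted p under 0.1. The standard error is the size of the log2 fold change divided by the square root of F. Levels are CPM after TMM scaling, and levels per kb divide these by the exon length. A count of 0 was given a floor of 3 counts, and floors cover counting error only. The fit was tested on simulated counts. Alternatives were DESeq2 1.42.0, limma-voom (limma 3.58.1) with sample quality weights, RLE scaling, no low-count filter, only the groups compared, a replicate block, an adjusted p under 0.05, and each library left out.

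Named were all 10 genes in every comparison, other family genes called in some comparison, at most the 5 called pathway genes with the largest log2 difference in each table, and the 2 genes most correlated with each gene called in lymphocytes. *Rap1b*, *Adgre1*, *Krt8*, *Krt18*, *Krt19*, *Krt20*, *Secisbp2*, *Clec9a*, *Xcr1*, *Cdh5* and *Kdr* were named after their values were seen. The members and lists were chosen with earlier results of these data known. Replicates are separate libraries of 1 group. The methods give 3 sortings of pooled lymphocytes without tying libraries to them, and the pools behind the MAM replicates are not given, so the p-values measure the spread between these libraries, which may be technical in part.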

Additional observations from a re-analysis of the deposited data

Results flagged for a closer look

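*Sema6a*, encoding a transmembrane semaphorin, differed between CD49a+ and CD49a- cells by another amount in LM than in MFL. The CD49a+ cells were CD49b- ILC1 in MFL and CD49b+ NK cells in LM, so site and cell type cannot be told apart here. The difference of the log2 differences was 8.20 ± 1.65 (edgeR interaction test, adjusted p = 0.0279), which rests on ILC1 libraries with 0, 2 and 0 counts, so the fitted size depends on the prior count and is no bound. Without LM CD49a+ replicate 3 it was 6.74 (adjusted p = 0.11) and no longer passed the test. It was 10.74 without ILC1 replicate 2 and 7.57 without MFL NK replicate 1. *Sema6a* is not among the 10 genes, and none of the 10 passed that test.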

How the results depend on the processing

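In MAMs 8 of the 10 genes were called under every alternative run, as were 0 in LM CD49a- against MFL NK cells and 0 for the interaction. Within LM, where edgeR called 1 (*Sema6d*), limma-voom, the fit of only the 2 groups and an adjusted p under 0.05 called 0, and leaving out single libraries gave 0 to 1. In LM CD49a+ against MFL NK cells, where edgeR called 0, limma-voom called 2, no low-count filter 1 and the replicate block 1, and leaving out single libraries gave 0 to 1. In ILC1 against MFL NK cells, where edgeR called 2, limma-voom called 6 and the fit of only the 2 groups 4. In LM CD49a+ NK cells against ILC1, where edgeR called 0, limma-voom called 2, and no low-count filter, the replicate block and the fit of only the 2 groups each called 1, with 0 to 1 over single libraries left out. Log2 differences changed sign for *Plxna1* within LM (1.27 with limma-voom, and -9.24 to 7.505 over libraries left out), and in LM CD49a- against MFL NK cells for *Plxna1* (-2.27 with limma-voom, -0.20 with the replicate block, -5.83 to 4.03 over libraries left out), *Sema4d* (-0.069 with limma-voom, -0.25 to 0.43) and *Nrp1* (-0.76 with limma-voom, -1.32 to 2.19). The sign changes with a library left out came from LM CD49a- replicate 2, and the cause of the others was not tested. Over all genes, counts of calls moved by over 1.5 times within LM from 19 to 543 with DESeq2, 0 with limma-voom, 200 without the filter and 3 with only the 2 groups; in LM CD49a+ against MFL NK cells from 88 to 365 with DESeq2, 307 with limma-voom and 371 without the filter; in LM CD49a- against MFL NK cells from 10 to 161, 104 and 158, and to 3 with only the 2 groups; in ILC1 against MFL NK cells from 416 to 667 with DESeq2, 2645 with limma-voom and 1228 with only the 2 groups; in LM CD49a+ NK cells against ILC1 from 486 to 1010 with DESeq2, 935 with limma-voom and 774 without the filter; and for the interaction from 140 to 349 with DESeq2 and 264 without the filter. With 1 library left out, these counts ran from 5 (without LM CD49a+ replicate 1) to 267 (LM CD49a- replicate 3) within LM, 26 (MFL NK replicate 1 or 3) to 168 (LM CD49a- replicate 2) in LM CD49a+ and 1 (MFL NK replicate 1 or 3) to 110 (LM CD49a- replicate 3) in LM CD49a- against MFL NK cells, 268 (MFL NK replicate 1) to 562 (LM CD49a- replicate 2) in ILC1 against MFL NK cells, 257 (ILC1 replicate 3) to 708 (LM CD49a- replicate 2) in LM CD49a+ NK cells against ILC1, and 75 (MFL NK replicate 2) to 256 (LM CD49a- replicate 3) for the interaction. The *Sema6a*, *Nrp2* and *Dpysl5* bounds without single libraries were added after seeing the data. No source used here says that a replicate number marks one of the 3 sortings, so the numbers were not taken as pairs. Deviations of same-numbered libraries correlated at -0.0452 to 0.0981 in lymphocytes and -0.0145 to 0.172 in MAMs. Of these libraries, 8 of 12 and 2 of 6 correlated best with their own number. Whether same-numbered libraries share deviations was not tested. The replicate block added the calls given above for *Sema6d* (adjusted p = 0.0953 and 0.0814) and changed no other call of the 10 genes. Depth limits the receptors in lymphocytes, where 3 counts correspond to 0.220 to 0.334 CPM.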
